A study of Mus musculus with 163 samples.

Results

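Oocytes in the ovary stay joined to the granulosa cells around them by adherens junctions, which are built on cadherins, and by gap junctions, which are built on connexins. Cadherins bind cadherins on the neighbouring cell and are anchored to actin through catenins inside the cell, whereas desmosomal cadherins such as desmocollins are anchored to intermediate filaments. Contactins are immunoglobulin-type adhesion proteins held at the cell surface by a lipid anchor and are best known from neurons. Connexin 37, the product of Gja4, forms the oocyte side of the channels through which granulosa cells feed the oocyte. The 8 genes described here are 4 classical cadherins (Cdh1, Cdh2, Cdh6 and Cdh12), the desmosomal cadherin Dsc3, the contactins Cntn5 and Cntn6, and Gja4. They were found by Entrez identifier in a table of 21950 genes, and several of them were selected on their difference between growth stages or on their difference between iPSC-derived and other oocytes, so those differences are given as a description.

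Transcripts were counted in single mouse oocytes of 7 groups by Smart-seq2, a full-length method for polyadenylated RNA. Growing oocytes (GROs) comprised 23 oocytes derived from the BVSC-iPSC line, 24 from E12.5 embryonic gonads and 24 taken in vivo. Fully grown oocytes (FGOs) comprised 24 iPSC-derived, 24 gonad-derived, 24 from follicles of 6 dpp (days post partum) mice grown in culture, and 20 in vivo oocytes. The BVSC-iPSC line is a female line that carries Blimp1-Venus and Stella-ECFP reporters, and its germ cells were aggregated with gonadal somatic cells of E12.5 embryos to form reconstituted ovaries. It is 1 line, and the labels give no strain for the other sources and no age for the in vivo oocytes, so line, strain and route cannot be told apart. By the study's account, iPSC-derived and gonad-derived GROs were larger than in vivo GROs. For some genes that rise with growth, it found higher levels in cultured GROs of matched size too. Sizes were not used here, so size and source cannot be told apart between GRO groups. The study also describes oocytes without Stella-ECFP in such ovaries, which it regards as likely to come from germ cells left among the gonadal cells. Somatic cells and the zona pellucida had been removed from every oocyte before lysis.

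Each oocyte gave between 2170106 and 13692528 counted reads. Levels are CPM, a gene's reads per 1000000 counted reads, which are shares of an oocyte's counted reads and not amounts per oocyte, and a group's pooled CPM was its summed reads over its summed library, where 3 reads correspond to between 0.0181 and 0.0207 CPM. No animal or culture is named for an oocyte, so each group is 1 sample and no comparison has a test or a replicate check. Intervals on levels and folds are exact 95% intervals that cover counting error only. Those on shares of oocytes are exact 95% binomial intervals. They take the oocytes of a group as independent draws and do not measure spread between animals or cultures. All 12 oocyte markers were above 1 CPM in every group, and their summed level was at least 19772 CPM in each oocyte. In vivo FGO 7 resembled gonad-derived GROs more than any FGO group by median correlation over genes. The 11 granulosa markers in the table summed to 1630 and 382 CPM in 6 dpp FGOs 12 and 10 and to 412 and 355 CPM in in vivo FGOs 19 and 16, whereas every other oocyte was at 156 CPM or less, with 18.7 CPM the lowest. In pooled 6 dpp FGOs 7 of the 11 were above 1 CPM, from Cyp19a1 at 74.7 CPM, the highest, to Amh at 0.0063 CPM, the lowest. Cumulus markers summed to at most 6.82 CPM in any oocyte. Theca and stroma markers reached 189 CPM in a 6 dpp FGO and 69.9 CPM in a gonad-derived FGO, against group medians of 5.97 and 4.09 CPM. Endothelium and blood markers summed to between 3.14 and 289 CPM, both extremes in in vivo GROs, and Pecam1 was the highest of them in every group. The parts of in vivo FGO 7 and of these somatic transcripts in the results were not tested. Values are given below without 5 oocytes, which are in vivo FGO 7 and the 4 high in granulosa markers.

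From the RefSeq promoter table of GRCm38.p6, 6 windows of 5 of the 8 genes were used. The table held no window for Cdh1, and none was used for Cdh2 and Dsc3. The 250 bases before a start are shown for the 3 windows that overlapped no annotated exon, those of Cdh6, Cntn5 and Gja4. Windows of Cntn6 and Cdh12 and a second window of Cntn5 overlapped exons and are not shown. Of the 8 genes, Cdh6 and Cntn5 were at least 4-fold higher in iPSC-derived than in vivo GROs when 0.5 CPM was added to each pooled level. Gja4 was abundant in all groups. The added 0.5 CPM holds down the ratios of low genes, and without it Cdh12 (10.4-fold), Dsc3 (6.18-fold) and Cntn6 (4.95-fold) passed 4-fold as well. Of these, Cdh12 was 16.1-fold without in vivo GRO 20 and Dsc3 13.3-fold without in vivo GRO 16. For Cntn6, 1 iPSC-derived GRO held 23.1% of its group's reads. Leaving out 1 oocyte took its log2 ratio with 0.5 CPM added from 1.64 to as low as 1.38. The windows shown all lie on the minus strand, at chr15:13173676-13173925, chr9:10904776-10905025 and chr4:127314040-127314289. The Cdh6 window lies within the annotated gene, which ends at 13176407, and so precedes an internal start. Those of Cntn5 and Gja4 adjoin the ends of their genes. Sequences are written 5′ to 3′ with the letters CANNTG, the E-box bound by basic helix-loop-helix factors, in capitals where they occur.
Cdh6: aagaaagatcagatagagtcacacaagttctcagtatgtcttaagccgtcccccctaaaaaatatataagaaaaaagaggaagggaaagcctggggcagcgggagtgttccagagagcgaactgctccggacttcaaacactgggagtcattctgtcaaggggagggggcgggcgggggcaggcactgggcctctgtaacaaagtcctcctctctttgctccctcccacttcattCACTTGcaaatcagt
Cntn5: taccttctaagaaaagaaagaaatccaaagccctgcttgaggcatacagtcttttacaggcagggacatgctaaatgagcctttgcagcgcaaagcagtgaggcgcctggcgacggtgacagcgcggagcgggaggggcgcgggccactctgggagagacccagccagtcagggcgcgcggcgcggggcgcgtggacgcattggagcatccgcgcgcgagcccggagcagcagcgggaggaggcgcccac
Gja4: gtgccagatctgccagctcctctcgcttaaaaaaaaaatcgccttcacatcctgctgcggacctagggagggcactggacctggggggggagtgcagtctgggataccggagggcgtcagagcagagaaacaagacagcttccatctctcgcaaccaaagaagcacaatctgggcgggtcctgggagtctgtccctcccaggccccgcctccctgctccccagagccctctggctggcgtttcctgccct
The Cntn5 window shown held 24 CpG dinucleotides, with an observed over expected ratio of 0.935 that exceeded 90.6% of all 32851 windows. The second Cntn5 window, which is not shown, held 26 with a ratio of 0.894, and 3 matches of CANNTG. The ratio was 0.367 for Cdh6 and 0.386 for Gja4, both close to the median of 0.374. On either strand, CANNTG occurred in 4 of the 6 member windows and in 66.2% of all windows. The letters TAATTA and TATAAA occurred in 0 of the 6, and in 4.84% and 12.4% of all windows.

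Gja4 was by far the most abundant of the 8 genes and 1 of the most abundant transcripts of the oocyte. Per length, as RPKM (CPM divided by the counted length in kilobases), its pooled level was between 675 in in vivo FGOs and 933 in iPSC-derived FGOs, and it ranked between 56 and 76 among all 21950 genes. Cdh1 followed with 12.7 RPKM in iPSC-derived GROs to 28.7 RPKM in 6 dpp FGOs. Cntn6 was at 0.124 RPKM in in vivo GROs and at 9.56 RPKM in in vivo FGOs, and Cdh2 at 0.454 and 3.70 RPKM. The remaining 4 genes were low throughout, with a highest pooled level of 1.82 RPKM for Cdh6, 0.969 for Cntn5, 0.257 for Dsc3 and 0.136 for Cdh12. The exons counted for Cdh6 came to 1919 bases, which is 23.5% of its longest GENCODE transcript, so reads over the rest of that transcript did not enter its level.

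**Figure D1:**
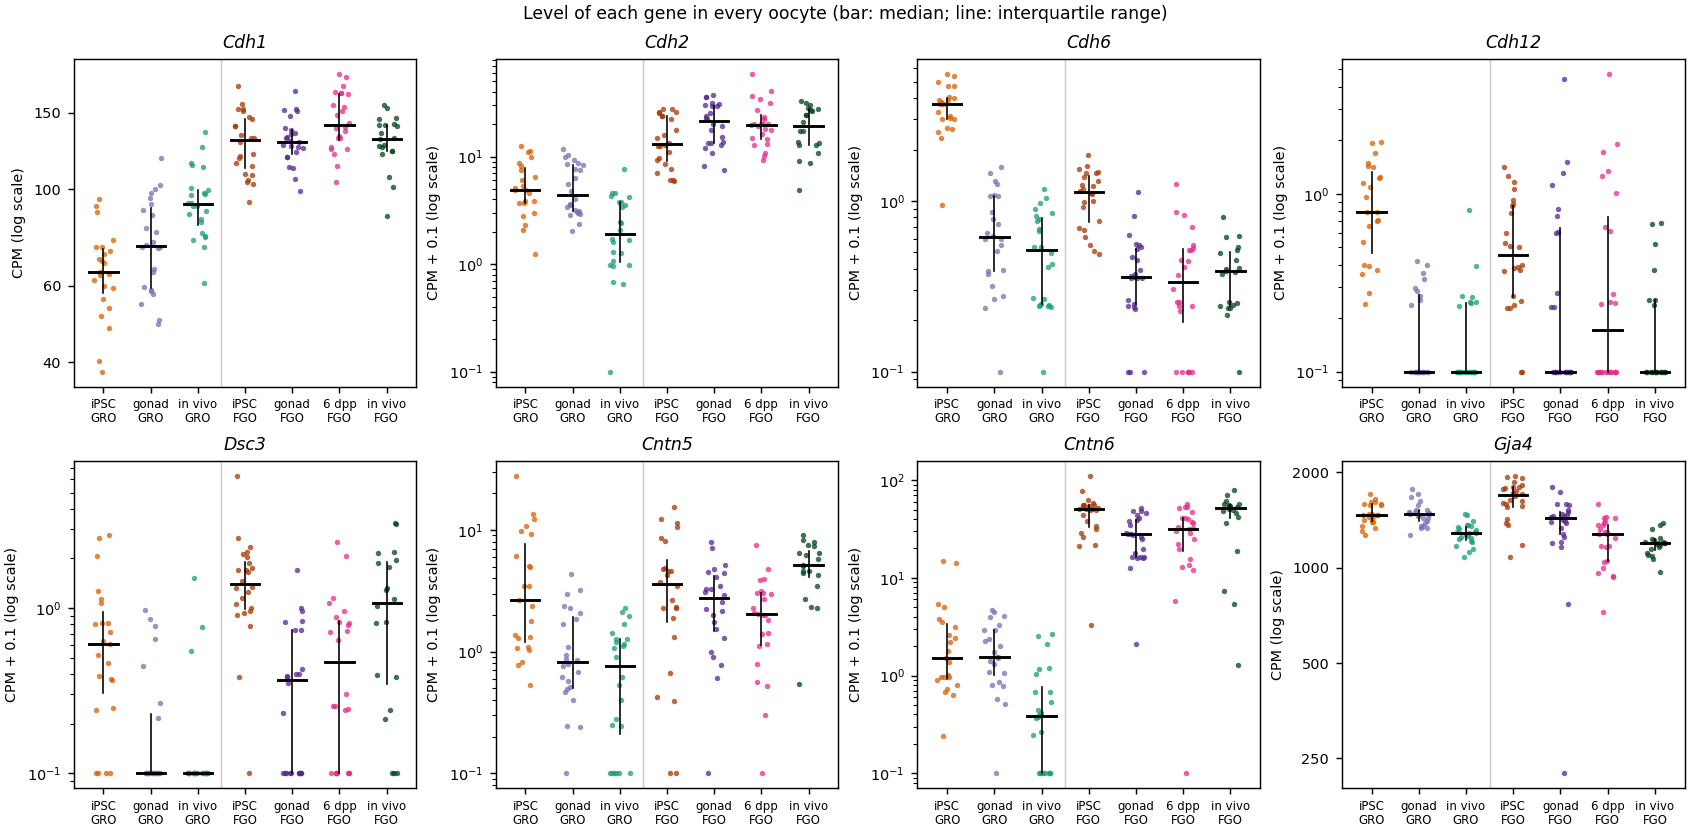
Level of the 8 genes in each oocyte, in CPM on a log axis (0.1 CPM was added except for Cdh1 and Gja4), by group, with the median as a bar and the interquartile range as a line. Cntn6 separates FGOs from GROs except for a few low FGOs, Cdh6 stands highest in iPSC-derived GROs, and 1 gonad-derived FGO lies far below all other oocytes in Gja4, at 224 CPM.

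Gja4 lies on chromosome 4 (Entrez 14612, 127311420 to 127314039, GRCm38.p6), Cdh1 on chromosome 8 (12550, 106603350 to 106670247) and Cdh2 on chromosome 18 (12558, 16588877 to 16809246). Cdh6 (12563, 13028699 to 13176407) and Cdh12 (215654, 20448878 to 21598421) are both on chromosome 15. Dsc3 is on chromosome 18 (13507, 19960930 to 20002410), Cntn5 on chromosome 9 (244682, 9634223 to 10904775) and Cntn6 on chromosome 6 (53870, 104492662 to 104863406).

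Cdh1 encodes E-cadherin, the cadherin of epithelia and of the early embryo. Its level ran from 38.0 to 94.8 CPM in iPSC-derived GROs (median 64.5), from 49.0 to 118 CPM in gonad-derived GROs (median 74.2) and from 60.8 to 135 CPM in in vivo GROs (median 92.2). In FGOs it ran from 93.5 to 173 CPM (median 130, iPSC-derived), from 99.1 to 169 CPM (median 129, gonad-derived), from 104 to 184 CPM (median 141, 6 dpp) and from 86.5 to 157 CPM (median 131, in vivo). FGOs were thus higher than GROs of the same source with overlapping ranges, and the lowest in vivo FGO was number 7. Pooled Cdh1 was 1.38-fold higher in FGOs in vivo (1.35 to 1.41), 1.67-fold in gonad-derived oocytes (1.63 to 1.70) and 2.02-fold in iPSC-derived oocytes (1.97 to 2.07), none of which reached 4-fold. Neighbouring FGO medians did not differ beyond their interquartile ranges, nor did neighbouring GRO medians, while the lowest FGO median and the highest GRO median did. Between GRO sources, pooled Cdh1 was 64.2 CPM for the iPSC route, 77.4 CPM for the gonad route and 93.8 CPM in vivo.

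The order of Cdh1 and Cdh3 differed between stages. Cdh3 is the gene of P-cadherin and was the most abundant classical cadherin of GROs per length. In in vivo GROs Cdh3 was at 49.1 and Cdh1 at 18.6 RPKM, and in in vivo FGOs Cdh3 was at 19.2 and Cdh1 at 25.7 RPKM. Counted oocyte by oocyte, Cdh1 exceeded Cdh3 in RPKM in 0 of 23 iPSC-derived, 0 of 24 gonad-derived and 0 of 24 in vivo GROs. It did so in 23 of 24 iPSC-derived, 21 of 24 gonad-derived, 24 of 24 6 dpp and 16 of 20 in vivo FGOs. Cdh1 made up between 18.9 and 23.3% of the summed RPKM of 17 classical cadherins in the GRO groups and between 36.5 and 44.3% in the FGO groups.

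Cdh2, which encodes N-cadherin, a cadherin of neural and mesenchymal cells that granulosa cells also carry, was low in GROs and higher in every FGO group. In vivo GROs ran from 0 to 7.56 CPM (median 1.80) and in vivo FGOs from 4.77 to 32.9 CPM (median 19.2). All but 1 of the 20 in vivo FGOs lay above all 24 in vivo GROs. The log2 ratio of pooled CPM + 0.5 was 2.79 in vivo, that is, 8.16-fold without the added 0.5 (7.33 to 9.09). Gonad-derived oocytes ran from 1.95 to 11.7 CPM as GROs (median 4.29) and from 7.47 to 37.6 CPM as FGOs (median 21.1), a ratio of 1.82. In iPSC-derived oocytes the ratio was 1.39, from a median of 4.78 to 13.0 CPM, with overlapping ranges. The cultured GROs were 2.32-fold (gonad-derived, 2.05 to 2.62) and 2.33-fold (iPSC-derived, 2.07 to 2.63) above in vivo GROs. Neither neighbouring GRO medians nor neighbouring FGO medians differed beyond their interquartile ranges. Without the 5 oocytes named above, the ratio for growth in vivo was 2.89. The 6 dpp FGO with the highest granulosa sum, number 12, had 40.9 CPM of Cdh2, the highest but 1 of its group, and the in vivo FGOs 16 and 19 had 12.8 and 13.4 CPM, below their group's median.

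Among in vivo FGOs, Cdh2 and Cntn6 were ordered alike over oocytes (Spearman's rho 0.84 over 20 oocytes), and both followed the first principal component (PC1) of the other 14220 genes (0.85 and 0.71). In gonad-derived and iPSC-derived FGOs rho between Cdh2 and Cntn6 was 0.55 and 0.57, and in 6 dpp FGOs 0.07. These are descriptions over oocytes whose library composition is shared by both genes. Median PC1 was -48.5 in iPSC-derived, -35.9 in gonad-derived and -59.2 in in vivo GROs, and at least 38.5 in each FGO group. A part of PC1 or oocyte size in differences between GRO sources was not tested.

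**Figure D2:**
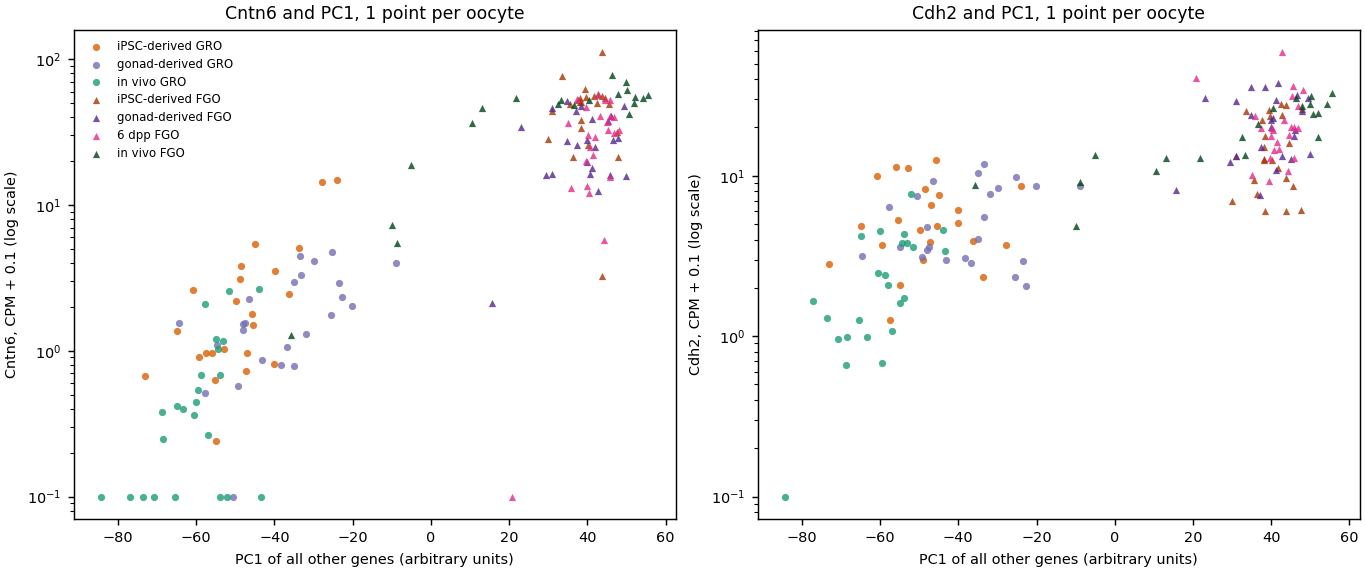
Cntn6 (left) and Cdh2 (right) in CPM + 0.1 on a log axis against PC1 of all other genes, 1 point per oocyte, with GROs as circles and FGOs as triangles. The 3 in vivo FGOs lowest in Cntn6, at 1.17, 5.34 and 7.22 CPM, lie at negative PC1, while iPSC-derived FGO 16 and gonad-derived FGO 6 are low in Cntn6 at positive PC1.

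Cdh6 encodes K-cadherin, a type II cadherin of the developing kidney and nervous system. It ran from 0.842 to 5.44 CPM in iPSC-derived GROs (median 3.61), from 0 to 1.48 CPM in gonad-derived GROs (median 0.512) and from 0 to 1.08 CPM in in vivo GROs (median 0.416). In 22 of 23 iPSC-derived GROs the level exceeded that of any GRO from the other 2 sources, so the ranges overlapped through 1 oocyte. That oocyte, iPSC-derived GRO 8, was also the lowest of its group in Cdh1. It had 30.4 CPM of Manba and 16.6 CPM of Sis, genes that were at most 0.871 and 0.501 CPM in any gonad-derived GRO. Both genes were picked from these same oocytes for their likeness to Cdh6, so nothing is read from these levels. Pooled Cdh6 was 5.73-fold higher in iPSC-derived than gonad-derived GROs (4.61 to 7.19) and 7.87-fold higher than in in vivo GROs (6.15 to 10.2), from 576, 96 and 72 reads. With 0.5 CPM added, the log2 ratios were 1.85 and 2.08. Cdh6 stayed higher in iPSC-derived FGOs, at 0.388 to 1.75 CPM (median 1.03), although the ranges overlapped with gonad-derived FGOs (0 to 1.03 CPM, median 0.260) and in vivo FGOs (0 to 0.708 CPM, median 0.287). All 24 iPSC-derived FGOs were above the median of each. The pooled level in FGOs was 3.50-fold that of gonad-derived (2.51 to 4.97) and 3.43-fold that of in vivo FGOs (2.43 to 4.93). Within the iPSC route the FGO level was 0.284 of the GRO level (0.237 to 0.338), a log2 ratio of -1.42.

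Cdh12, a type II cadherin of brain, was present in few reads in every group, and among GROs it was found in all iPSC-derived oocytes but in a minority of the others. At least 1 read was found in 23 of 23 iPSC-derived GROs (100%, 85.2 to 100%), in 9 of 24 gonad-derived (37.5%, 18.8 to 59.4%) and in 8 of 24 in vivo GROs (33.3%, 15.6 to 55.3%). After thinning of every oocyte to 2000000 reads these were 17, 3 and 2 oocytes. iPSC-derived GROs ran from 0.141 to 1.86 CPM (median 0.690), gonad-derived GROs from 0 to 0.316 CPM and in vivo GROs from 0 to 0.715 CPM, both with a median of 0. The pooled levels, 0.833, 0.083 and 0.080 CPM, came from 137, 13 and 13 reads, and the iPSC-derived level was 10.1-fold the gonad-derived one (5.69 to 19.4). With 0.5 CPM added the log2 ratio was 1.19, short of 4-fold. In FGOs the pattern was different. The iPSC-derived FGOs had a read in 22 of 24 oocytes (0 to 1.32 CPM, median 0.351), while gonad-derived and 6 dpp FGOs had one in 11 and 12 of 24, yet all 3 groups were at 0.475 to 0.540 pooled CPM. Gonad-derived FGO 13 alone, at 4.34 CPM, carried 42.5% of its group's Cdh12 reads, and 6 dpp FGO 3, at 4.62 CPM, carried 34.9%. Without oocyte 13 the pooled level of gonad-derived FGOs was 0.298 CPM. In vivo FGOs reached 0.587 CPM at most and had a pooled level of 0.117 CPM, from 17 reads.

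**Figure D3:**
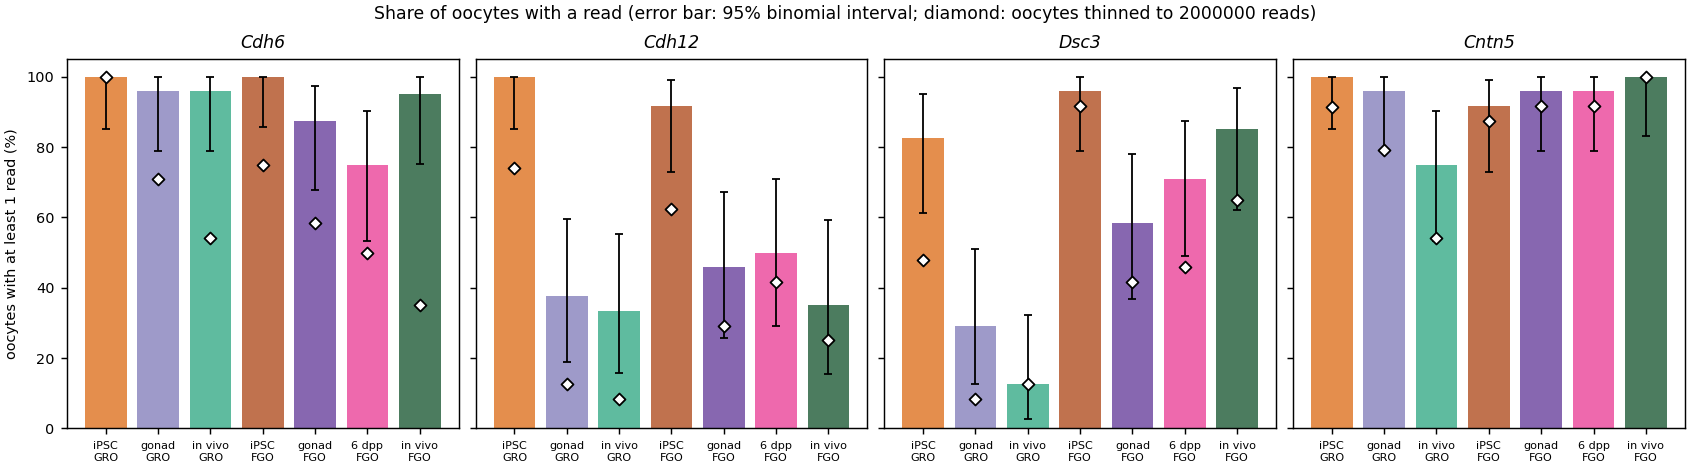
Share of oocytes with at least 1 read of Cdh6, Cdh12, Dsc3 and Cntn5 by group, in percent, with exact binomial 95% intervals as error bars and the share after thinning to 2000000 reads as diamonds. Cdh12 had a read in 100% of iPSC-derived GROs against 37.5% of gonad-derived and 33.3% of in vivo GROs.

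Dsc3 encodes desmocollin 3, a desmosomal cadherin of stratified epithelia. It had a read in 19 of 23 iPSC-derived (82.6%, 61.2 to 95.05%), 7 of 24 gonad-derived (29.2%, 12.6 to 51.1%) and 3 of 24 in vivo GROs (interval 2.66 to 32.4%). iPSC-derived GROs ran from 0 to 2.67 CPM (median 0.504), whereas gonad-derived GROs ran from 0 to 0.876 and in vivo GROs from 0 to 1.43 CPM with medians of 0. In vivo GRO 16 alone held 55.6% of its group's 18 reads. Among FGOs the iPSC-derived oocytes were highest, from 0 to 6.24 CPM (median 1.29), followed by in vivo FGOs from 0 to 3.17 CPM (median 0.980). The 6 dpp FGOs (0 to 2.40 CPM, median 0.370) and gonad-derived FGOs (0 to 1.59 CPM, median 0.266) were lower, with overlapping ranges throughout. Pooled Dsc3 was 4.69-fold higher in iPSC-derived than gonad-derived GROs (2.98 to 7.70) and 4.21-fold higher in the respective FGOs (3.16 to 5.68), on the log2 scale with 0.5 CPM added 0.88 and 1.23. In vivo it was 9.92-fold higher in FGOs than GROs (6.08 to 17.2), where the added 0.5 CPM left a log2 ratio of 1.39. Without in vivo GRO 16 the GRO level was 0.0517 CPM and the fold 21.4. 6 dpp FGOs were at 0.483 of the in vivo FGO level (0.367 to 0.633). No neighbouring pair in the order of its 7 medians differed beyond the interquartile ranges, which also held for Cdh12 and Cntn5. In the same family Dsc2, another desmocollin, held at least 80.5% of the summed RPKM in every group, and its in vivo growth ratio was 2.23.

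Cntn6 showed the widest span between stages. Its product, NB-3, is a contactin of the developing brain. In vivo GROs ran from 0 to 2.54 CPM (median 0.288) and in vivo FGOs from 1.17 to 78.3 CPM (median 51.2). Gonad-derived GROs ran from 0 to 4.62 CPM (median 1.46) and the FGOs from 2.01 to 51.9 CPM (median 27.7). iPSC-derived GROs ran from 0.141 to 14.7 CPM (median 1.40) and the FGOs from 3.18 to 111 CPM (median 50.3). In each source the ranges overlapped through 1 low FGO, and all the other FGOs lay above every GRO of that source. The log2 ratios were 5.38 in vivo (77.1-fold, 62.8 to 95.7), 3.57 in gonad-derived (14.8-fold, 13.2 to 16.7) and 3.84 in iPSC-derived oocytes (16.6-fold, 15.1 to 18.3). Pooled FGO levels were 44.3 CPM in vivo, 47.3 CPM in iPSC-derived and 27.8 CPM in gonad-derived oocytes, and the GRO levels were 0.575, 2.85 and 1.87 CPM in the same order. The interquartile range of in vivo GROs (0 to 0.670 CPM) did not meet that of iPSC-derived GROs (0.831 to 3.23 CPM), its neighbour in the order of medians. The 6 dpp FGOs ran from 0 to 56.6 CPM (median 31.8).

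The low FGOs were not alike. In vivo FGO 7 (1.17 CPM) was the oocyte whose transcriptome resembled GROs, and in vivo FGOs 22 and 5 (5.34 and 7.22 CPM) had PC1 values of -8.78 and -9.95 against a group median of 38.5. The 6 dpp FGO 12, with 0 reads of Cntn6, was the oocyte of the highest granulosa sum and had a PC1 of 20.8, the lowest of its group. iPSC-derived FGO 16 (3.18 CPM) had a PC1 of 43.8, above its group's median of 39.6, and was also among the lowest of its group in Cdh2 (5.92 CPM) and at 0 for Cntn5. Gonad-derived FGO 6 (2.01 CPM) had the lowest PC1 of its group, 15.7. Without the 5 oocytes named above the in vivo growth ratio of Cntn6 was 5.51.

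Cntn5, which encodes NB-2, another neuronal contactin, was at a few CPM with a wide spread. iPSC-derived GROs ran from 0.432 to 27.9 CPM (median 2.54), gonad-derived GROs from 0 to 4.25 CPM (median 0.723) and in vivo GROs from 0 to 2.17 CPM (median 0.654). In 13 of 23 iPSC-derived GROs the level exceeded that of any in vivo GRO, and the others overlapped. iPSC-derived GRO 5 alone held 23.1% of its group's Cntn5 reads. Pooled Cntn5 was 6.67-fold higher in iPSC-derived than in vivo GROs (5.51 to 8.13), a log2 ratio of 2.14, and 4.05-fold higher than in gonad-derived GROs (3.46 to 4.76), a log2 ratio of 1.67. Without iPSC-derived GRO 5 the log2 ratio of Cntn5 to in vivo GROs was 1.85, below 4-fold. In FGOs the in vivo oocytes were highest, from 0.440 to 9.06 CPM (median 5.00), and all but 1 of the 20 in vivo FGOs, again number 7, lay above every in vivo GRO. The growth ratio was 2.16 in vivo, 0.87 in gonad-derived and -0.14 in iPSC-derived oocytes, whose FGOs ran from 0 to 15.3 CPM (median 3.52). The 6 dpp FGOs (0 to 7.41 CPM, median 1.93) had 0.420 of the pooled in vivo FGO level (0.369 to 0.479), and 1 of 24 exceeded the in vivo median.

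The order of the contactins also differed between stages. Per length, Cntn2 led the 6 contactins in in vivo GROs with 3.06 RPKM, and Cntn4 led in gonad-derived and iPSC-derived GROs with 2.09 and 1.81 RPKM. Cntn6 led in all 4 FGO groups, with 43.8 to 60.5% of the summed contactin RPKM. Cntn6 exceeded Cntn2 in RPKM in 0 of 24 in vivo, 1 of 24 gonad-derived and 3 of 23 iPSC-derived GROs, and in 17 of 20 in vivo, 22 of 24 gonad-derived, 22 of 24 6 dpp and 24 of 24 iPSC-derived FGOs. Among all 13148 genes tested for growth in vivo, 3.07% were at least 4-fold higher and 1.95% at least 4-fold lower, with 0.5 CPM added, and the median ratio was -0.11. Of the 6 contactins 2 were higher, which were the members Cntn5 and Cntn6, selected in part for such a difference, so nothing is read from that count. Of 12 contactin partners past the filter, 3 were higher (Nrcam 3.06, Cntnap3 2.67 and Cntnap5c 2.24) and 1 lower (Nfasc -2.28), with a median of 0.39. Nrcam, a neuronal adhesion protein, was also the only partner to reach 4-fold in IVD@GRO, that is, in gonad-derived over in vivo GROs (48.2 against 3.95 pooled CPM, a ratio of 3.45).

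Gja4 was steady between oocytes and groups. It ran from 1264 to 1714 CPM in iPSC-derived GROs (median 1467), from 1267 to 1773 CPM in gonad-derived GROs (median 1474) and from 1081 to 1479 CPM in in vivo GROs (median 1284), with coefficients of variation of 7.92, 8.30 and 7.68%. FGOs ran from 1080 to 1954 CPM (median 1694, iPSC-derived), from 224 to 1793 CPM (median 1432, gonad-derived), from 724 to 1595 CPM (median 1278, 6 dpp) and from 967 to 1381 CPM (median 1196, in vivo). All 10 ratios lay between -0.11 and 0.47, and the largest was that of iPSC-derived against in vivo FGOs, 1.38-fold (1.38 to 1.39), where 21 of 24 iPSC-derived FGOs lay above every in vivo FGO. iPSC-derived FGOs stood apart from the next median by their interquartile range, and no other neighbours did. Gja4 made up 94.0 to 97.9% of the summed RPKM of 19 connexins in every group.

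The spread of Gja4 was wider in cultured FGOs, with coefficients of variation of 13.9, 23.5 and 17.1% in iPSC-derived, gonad-derived and 6 dpp FGOs against 8.39% in vivo. Gonad-derived FGO 19 had 224 CPM, and without it the group's coefficient of variation was 15.1% and its pooled level 1422 in place of 1371 CPM. The same oocyte had 4.74 CPM of Mrpl12, a mitochondrial ribosomal protein gene, against a group median of 167 CPM, and 270 CPM of Zp3, a zona pellucida gene, against 3980 CPM. Mrpl12 was picked from these same oocytes for its likeness to Gja4, so nothing is read from its levels in oocytes low in Gja4. Over 7066 genes above 10 CPM, its median log2 ratio to the group median was -1.02 among the shortest and 0.15 among the longest when genes were put into 4 equal bins by counted length, while the other 23 oocytes were between -0.08 and 0.07 in the shortest bin. In the second shortest bin gonad-derived FGO 19 was at -0.31. Counted length is 1766 bases for Gja4, and the bin that holds it is not given here. A part of length in the low Gja4 of this oocyte was not tested. Gonad-derived FGO 15 (767 CPM) and 6 dpp FGO 18 (724 CPM) were the next lowest, with 85.1 and 51.4 CPM of Mrpl12.

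**Figure D4:**
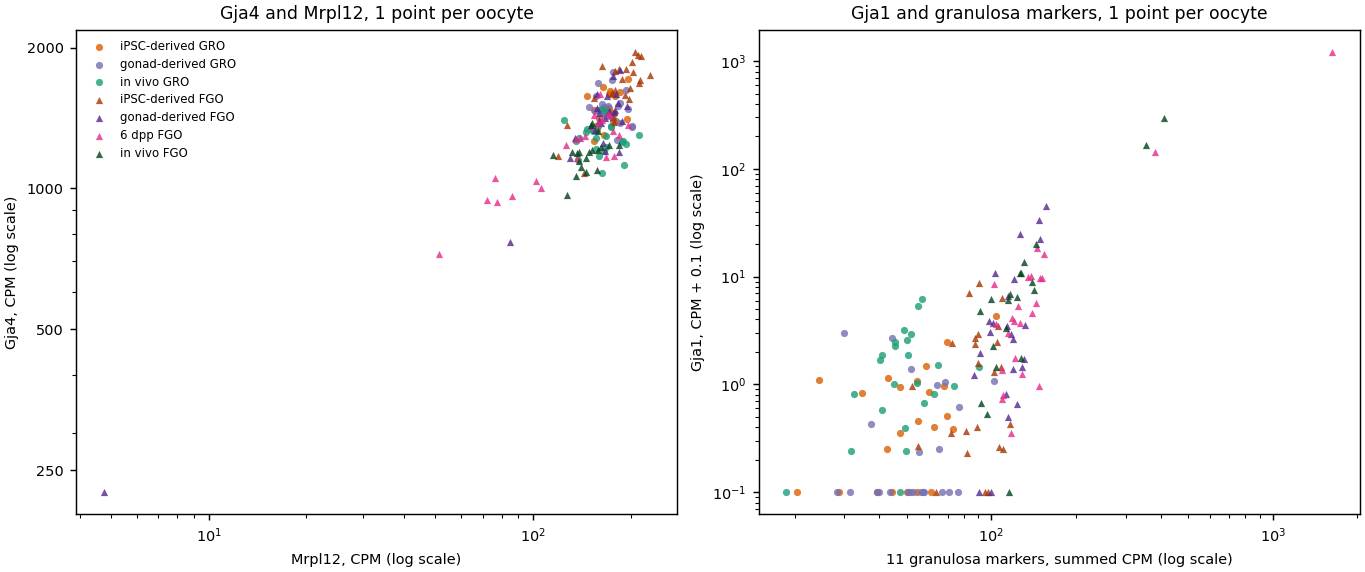
Left, Gja4 against Mrpl12, both in CPM on log axes, and right, Gja1 in CPM + 0.1 against the summed CPM of 11 granulosa markers (Gja1 is 1 of them) on log axes, 1 point per oocyte. Gonad-derived FGO 19 lies alone at 224 CPM of Gja4 and 4.74 CPM of Mrpl12, and 4 oocytes reach at least 355 CPM in the granulosa sum, 6 dpp FGO 12 with 1208 CPM of Gja1. Mrpl12 was picked from these same oocytes for its likeness to Gja4.

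Gja1 encodes connexin 43, the connexin that couples granulosa cells to each other. Its pooled level was between 0.420 and 1.61 CPM in GROs. In FGOs it was 1.91 CPM by the iPSC route, 8.29 CPM by the gonad route, 60.03 CPM after follicle culture and 30.6 CPM in vivo. 6 dpp FGO 12 had 1208 CPM and the group median was 4.26 CPM. Without the 5 oocytes named above pooled Gja1 was 5.56 CPM for 6 dpp and 6.24 CPM for in vivo FGOs. The ratio of gonad-derived against 6 dpp FGOs went from -2.78 to 0.54. Gja4 showed no such dependence, with ratios of 0.17 and 0.16. Of 11 connexins past the filter for growth in vivo, Gja1 was at least 4-fold higher (3.88) and Gjc1 lower (-2.22), with a median of 0.71, but without the 5 oocytes the ratio of Gja1 was 1.68, below 4-fold. Among the pannexins, relatives of the connexins in channel structure, Panx1 was at 73.2 and 54.1 CPM in in vivo GROs and FGOs and Panx2 at 0.915 and 9.18 CPM, a ratio of 2.77.

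Set against all genes, the members' log2 ratios with 0.5 CPM added, on which every count of genes at least 4-fold apart rests, read as follows. The filter asked for 3 or more oocytes with over 1 CPM, counted within the stage or, for growth, within the 2 groups compared. With growth in vivo 6 of the 8 passed and 3 were at least 4-fold higher (Cdh2, Cntn5 and Cntn6), where 3.07% of the 13148 genes tested were, while Cdh6 and Cdh12 stayed below the filter. With growth of gonad-derived oocytes 7 passed (Dsc3 did not) and Cntn6 was at least 4-fold higher, as were 0.88% of genes. With growth of iPSC-derived oocytes all 8 passed and Cntn6 was again higher, as were 1.13% of genes. In iPSC-derived against in vivo GROs Cdh6 and Cntn5 were at least 4-fold higher, as were 1.05% of genes. Where the members had been selected on that contrast nothing is read from these counts. On this scale no member was at least 4-fold apart in either direction in iPSC-derived against gonad-derived GROs (IVP@GRO, for in vitro differentiation to primordial germ cell-like cells, 0.559% of genes) or in gonad-derived against in vivo GROs (IVD@GRO, for in vitro differentiation to oocytes, 0.685% of genes). The same held in FGOs for iPSC-derived against gonad-derived (IVP@FGO, 0.685%), gonad-derived against 6 dpp (IVD@FGO, 0.42%), 6 dpp against in vivo (IVG@FGO, for in vitro growth, 0.353%) and iPSC-derived against in vivo oocytes (1.98%). Without the added 0.5 CPM, Cdh12, Cdh6, Dsc3 and Cntn5 exceeded 4-fold in IVP@GRO, Dsc3 in IVP@FGO (4.21), and Cdh12 in IVG@FGO (4.60) and in iPSC-derived against in vivo FGOs (4.05). The study itself lists Cdh12, Cdh6, Cntn5 and Dsc3 as examples of adhesion genes upregulated in IVP@GRO. It used an edgeR model with a 4-fold and a significance cutoff. For Cdh12, 6 dpp FGO 3 carried 34.9% of its group's reads, and in vivo FGOs had 17 reads in all. The comparisons above share groups and so are not independent of each other.

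**Figure D5:**
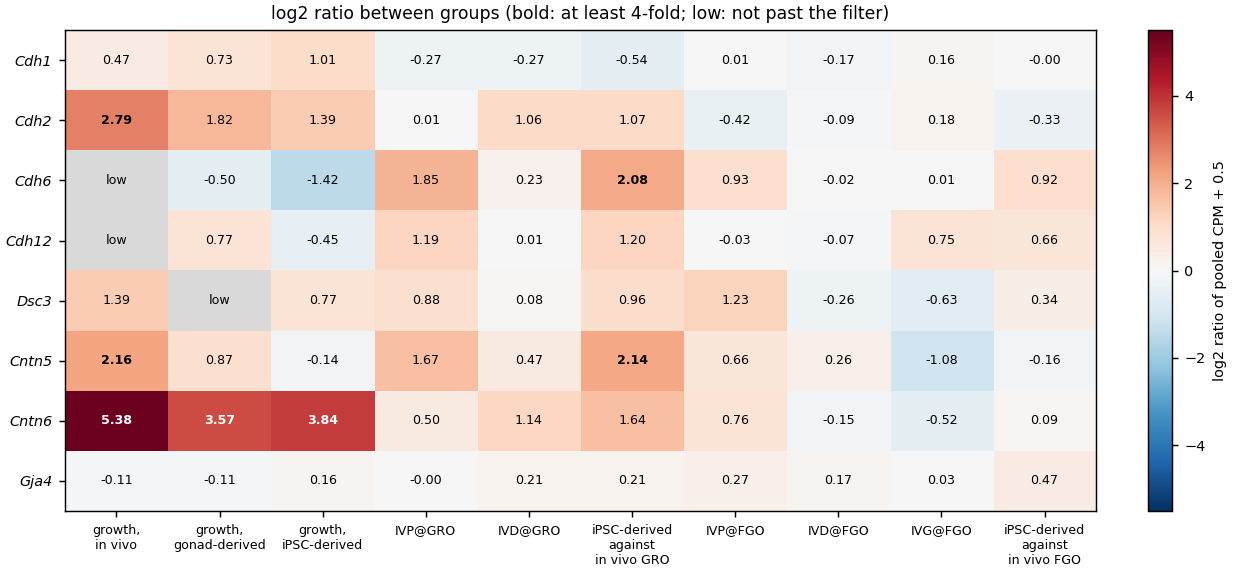
log2 ratio of pooled CPM + 0.5 for the 8 genes (rows) in the 10 comparisons (columns, first named group over the other, FGO over GRO for growth), with ratios of at least 4-fold in bold and genes below the filter in grey. Cntn6 is at least 4-fold higher in all 3 growth comparisons, with 5.38, 3.57 and 3.84, and none of the 8 is at least 4-fold lower in any comparison.

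Relatives of the cadherin members are given on the same scale for growth in vivo, where 3.07% of all genes were at least 4-fold higher and 1.95% at least 4-fold lower. Of 10 classical cadherins past the filter for growth in vivo, Cdh2 was at least 4-fold higher and 0 were lower, and the median ratio was 0.37. Of 3 other cadherins Cdh17 (3.73) and Cdh23 (2.96) were higher. None of 13 catenins and plakins, the proteins that anchor cadherins, was at least 4-fold apart in any of the 10 comparisons. Their median ratio for growth in vivo was -0.69, against -0.11 for all genes. In that comparison 5 of the 13 were at least 2-fold lower and 0 at least 2-fold higher. Ctnnb1, which encodes beta-catenin, was at 242 and 232 CPM in in vivo GROs and FGOs. Of 3 nectins, which act beside cadherins at adherens junctions, Nectin1 was lower with growth in vivo (-2.18).

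The genes whose levels over all oocytes were most like a member's, by Pearson's r of log2(CPM + 1) were sought among 14207 genes. For Cntn6 they were Fgf10 (0.91), Rrh (0.90) and Man1a (0.90), and for Cdh1 Stard13 (0.91), Plekhg1 (0.87) and Dcp1a (0.86). For Cdh2 they were Trib2 (0.84), Htr5a (0.84) and Fgf10 (0.83). For Cdh6 they were Sis (0.86), Gm20098 (0.86) and Manba (0.84), and after each group's mean was subtracted these r were at most 0.09. Sis was at 7.91 CPM or more in every iPSC-derived GRO. For Gja4 they were Gemin7 (0.88), Mrpl12 (0.85) and Dpcd (0.84), whose r was between 0.84 and 0.87 after that subtraction. In gonad-derived FGO 19, the oocyte lowest in Gja4, these genes were at 30.1, 4.74 and 13.7 CPM. The group medians were 326, 167 and 175 CPM. The r without that oocyte was not computed, so its part in these values is not known. For Cdh12, Dsc3 and Cntn5 the highest r were 0.46, 0.56 and 0.55. All are correlations over oocytes that share a group and a library composition.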

How the data were processed

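Single oocytes had been prepared by Smart-seq2. Per the study's methods, the authors aligned reads with STAR to GRCm38/mm10 with spike-in sequences, placed multimapping reads at random, and counted uniquely mapped reads over the exons of 1 random transcript per gene with QuasR. Strand use is not given in the sources used here, so Cntn5, which overlaps Mir6237, and Cdh12, which overlaps Acot10, are uncertain to that extent. The authors deposited raw read counts for each oocyte over 21950 genes, with an exonic length per gene (unit other), which gave RPKM. Symbols were found for 21907 identifiers, and the other 43 were not named. The members, gene lists and measures were chosen with earlier results of these data known.

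Pooled CPM, ratios with 0.5 CPM added, a 4-fold size rule and exact Poisson or Clopper-Pearson 95% intervals were computed in Python 3.11.15 with scipy 1.17.1. No test was made, because the labels name no animal or culture behind an oocyte. Reads amplified by PCR carried no molecular identifiers, so intervals on levels and folds cover counting error only. Intervals on shares of oocytes take oocytes as independent draws. edgeR 4.0.16 and DESeq2 1.42.0 gave alternative scalings, and an edgeR model coefficient without p-values. Other genes were named when at least 4-fold apart in growth in vivo or in a stepwise comparison, when among the 3 highest RPKM of their list in in vivo GROs, or when among the 3 genes most like a member. Gene values of single oocytes, the length bins and the pairs Cdh1 with Cdh3 and Cntn6 with Cntn2 were chosen after values were seen. The ratio calculation was tested on simulated counts. The value of Gja4 without gonad-derived FGO 19 and plain folds without single oocytes were added after the data were seen. Protein sequences were not used here.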

Additional observations from a re-analysis of the deposited data

How the results depend on the processing

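Of 723 member ratios recomputed under another scaling, pseudocount, average, model or set of oocytes, 691 kept their sign, 687 moved by less than 1 SD between oocytes and 0 called ratios changed sign. TMM scaling and DESeq2 size factors moved the median of all genes by at most 0.07 and moved no count of members at least 4-fold apart by over 1.5 times. Counts of members at least 4-fold higher did move with the way low genes are treated. For IVP@GRO the count of 0 became 2 with a pseudocount of 0.1 CPM, 1 with the median of oocyte CPM and 4 with the edgeR coefficient. For iPSC-derived against in vivo GROs the count of 2 became 4 with a pseudocount of 0.1 CPM, 0 with a pseudocount of 2 CPM, 1 with the median, 5 with the edgeR coefficient, and 1 to 2 when 1 oocyte was left out (1 without iPSC-derived GRO 5). For growth of gonad-derived oocytes the count of 1 became 2 with the median and with the edgeR coefficient. For IVP@FGO and for IVG@FGO the count of 0 became 1 with the edgeR coefficient. Fewer added counts leave low genes a wider ratio by construction. Of 56 shares of oocytes with a read, 43 stayed within their interval after thinning, so shares of low genes depend on depth. No paired analysis was possible because the result comes from no test.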
